A study of Mus musculus with 6 samples.

Results

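The regions described here are the CTCF peaks on mouse chromosomes 9 and 12. All peaks on these chromosomes in the 4 deposited CTCF peak lists were taken, apart from those on chromosome 9 between 3.0 and 3.1 Mb, a window of extreme scores. This gave 449 peaks, 339 on chromosome 9 and 110 on chromosome 12, of 32988 on chromosomes 1 to 19, X and Y. The chromosomes were chosen because they hold few peaks, so their low density is a description and not a finding. The lists come from Hepa-1c1c7, a mouse hepatoma cell line, either untreated (0 µM chromium) or exposed to 25 µM potassium chromate for 90 min before fixation, with 2 CTCF libraries each, numbered 1 and 2. The treatment arms share the line, the growth medium and the antibody. Each library was called against the total input of its own number, so untreated 1 and chromium 1 share an input, as do untreated 2 and chromium 2. The labels do not say whether the libraries of a group are separate cultures, and the spread between them may be technical. Peak positions measure no expression, so the identity of the cells was not checked against markers.

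The DNA-binding factor CTCF recognises a long, GC-rich motif through its zinc fingers. With the cohesin ring it anchors chromatin loops and the borders between domains, and it also binds near the start sites of many genes. Its strongest sites are usually occupied in most cell types, so the same sites are commonly found again in repeated experiments.

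Few peaks did not go with a higher share of recurrent peaks or of peaks at gene ends. On chromosomes 9 and 12 only 10 of 449 peaks, forming 5 sites, overlapped a peak of another list, and 0 of these 10 lay within 1 kb of an end of a protein-coding gene. Those described here lay beside Snx19, Plek2 and St14, and between Epm2aip1 and Trank1. The 23 peaks at gene ends were each found in a single list. Among them were peaks just upstream of Eif3g, Cul5, Zpr1 and Uqcrc1, and several of the promoters under a peak contain a match to the core of the CTCF motif.

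The sequences that show this are the promoter stretches under the peaks. RefSeq promoter windows (build GRCm38.p6, from 250 bases before to 50 bases after a start of transcription) of protein-coding genes on the 2 chromosomes were overlapped by a peak in 11 cases. The motif searched, on either strand, was a core of the CTCF motif: CCA, 2 bases of any kind, AG, 2 bases of any kind, then GGC. It was present in 6 of these 11 windows (54.5%, exact Clopper-Pearson 95% interval 23.4 to 83.3). On the other chromosomes 57 of 536 windows under a peak held it (10.6%, 8.15 to 13.6), and over all 21263 protein-coding promoter windows the share was 2.34%. Of the 6 matches, 5 lay inside the peak. The remaining match, in the window of a RefSeq start within Atp6v1d, lay outside the peak and inside the gene. All 6 windows were under peaks of untreated 1, where 6 of 9 windows on chromosomes 9 and 12 held the motif against 43 of 332 (12.95%, 9.53 to 17.05) elsewhere. The difference was not tested. All 6 matches read in the direction of the gene, as 290 of the 498 promoter windows with the motif did genome-wide. The shorter string AGGGGGC, which can overlap the longer motif, was in 1 of the 11 windows, 27.6% of the windows under a peak elsewhere and 12.9% of all protein-coding windows.

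The upstream bases that a peak covers are given below for the 5 promoters with the match inside the peak, written 5′ to 3′ along the gene, with the motif match in capitals. Eif3g, the gene-end peak of highest score percentile, is shown with them as a promoter without a match. The stretches are chr9:53667508-53667708 (minus strand), chr9:46272814-46273009 (plus), chr9:44234142-44234296 (minus), chr9:110101088-110101231 (minus), chr9:108936449-108936647 (plus) and chr9:20898591-20898749 (minus).
Cul5: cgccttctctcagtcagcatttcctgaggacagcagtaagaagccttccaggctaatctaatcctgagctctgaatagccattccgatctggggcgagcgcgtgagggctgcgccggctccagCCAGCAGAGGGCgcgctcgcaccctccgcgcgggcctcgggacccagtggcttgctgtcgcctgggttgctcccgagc
Zpr1: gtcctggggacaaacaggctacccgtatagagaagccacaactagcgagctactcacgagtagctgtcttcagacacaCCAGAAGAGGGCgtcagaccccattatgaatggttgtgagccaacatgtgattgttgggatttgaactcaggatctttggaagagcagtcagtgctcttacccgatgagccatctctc
Cbl: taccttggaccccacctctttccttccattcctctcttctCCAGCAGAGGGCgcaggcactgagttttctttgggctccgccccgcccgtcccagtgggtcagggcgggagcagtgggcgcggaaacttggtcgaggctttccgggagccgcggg
Dhx30: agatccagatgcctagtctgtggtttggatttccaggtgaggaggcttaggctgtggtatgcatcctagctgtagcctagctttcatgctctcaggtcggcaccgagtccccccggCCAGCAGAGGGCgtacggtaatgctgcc
Uqcrc1: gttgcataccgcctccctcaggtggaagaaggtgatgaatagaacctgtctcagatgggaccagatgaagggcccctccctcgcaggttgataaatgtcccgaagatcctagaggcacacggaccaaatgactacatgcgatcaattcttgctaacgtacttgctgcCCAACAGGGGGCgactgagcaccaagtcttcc
Eif3g: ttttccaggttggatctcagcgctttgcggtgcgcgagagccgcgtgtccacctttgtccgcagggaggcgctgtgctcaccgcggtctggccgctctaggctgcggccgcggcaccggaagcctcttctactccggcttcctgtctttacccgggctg

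In Cul5, Cbl and Dhx30 the match has the same letters, CCAGCAGAGGGC, and it begins 78, 210 and 28 bases before the start of transcription. For Cbl and Dhx30 that RefSeq start lies within the annotated gene, so the match is inside the gene. The match of Zpr1, CCAGAAGAGGGC, begins 172 bases before the start, and that of Uqcrc1, CCAACAGGGGGC, begins 32 bases before it. Letters that match are a description of the window and do not show binding. The Eif3g window contains neither string. The 6 promoters were chosen after the values were seen, because the planned choice, genes with a recurrent peak at an end, gave 0 genes.

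The density of peaks bears out the choice of chromosome 12, but chromosome 9 is not among the 3 sparsest. Over the 4 lists there were 0.917 peaks per Mb on chromosome 12, 0.949 on chromosome X, 1.45 on chromosome 14 and 2.72 on chromosome 9, and the next, chromosome 7, had 5.59. Lengths were taken up to the last annotated gene. Chromosome Y held 1 peak. Untreated 1 had 141 peaks on chromosome 9 and 44 on chromosome 12, and chromium 1 had 164 and 56. Untreated 2 had 22 and 9, and chromium 2 had 12 and 1. The window left out of chromosome 9 held 26 peaks with scores of 2.59 to 1546, whereas the highest score among the 449 peaks was 10.9. The first peak kept on chromosome 9, in chromium 1, started at 3190876 with a score of 6.70.

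**Figure D1:**
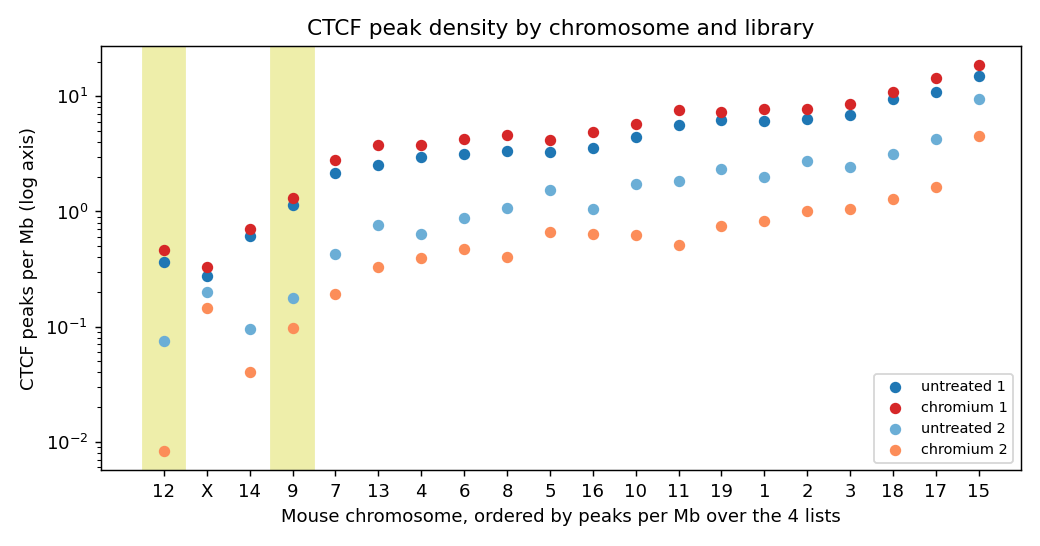
CTCF peaks per Mb (log axis) on each chromosome in the 4 libraries, chromosomes ordered by their density over the 4 lists, with chromosomes 9 and 12 shaded. Chromosomes 12, X, 14 and 9 lie lowest, between 0.917 and 2.72 peaks per Mb over the 4 lists.

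On chromosome 9 the peaks were not sparse throughout. Of its 339 peaks, 247 lay between 3.1 and 40 Mb, a density of 6.69 per Mb, and 92 lay beyond 40 Mb, 1.09 per Mb. The point of 40 Mb was chosen after the counts were seen. The counts per Mb fell unevenly. They were 6 from 28 to 29 Mb, 3 from 29 to 30 Mb and 18 from 30 to 31 Mb. Then came 13 from 31 to 32 Mb and 1 from 32 to 33 Mb, but again 6 from 35 to 36 Mb. Gene ends were not fewer in the distal part, where 3.67% of bases lay within 1 kb of a gene end against 3.38% in the proximal part. The proximal part holds Cntn5, a neuronal contactin, with 9 peaks from 3 lists, and Aplp2, a homologue of the amyloid precursor protein, with 5 peaks from all 4 lists. These peaks did not overlap each other.

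The distal share of chromosome 9 peaks was 36.9% in untreated 1 (52 of 141, exact 95% interval 28.9 to 45.4) and 20.1% in chromium 1 (33 of 164, 14.3 to 27.1). It was 27.3% in untreated 2 (6 of 22, 10.7 to 50.2) and 8.33% in chromium 2 (1 of 12, 0.211 to 38.5). Both chromium values lay below both untreated values. The untreated mean was 32.1% ± 6.79 (SD, n = 2). The chromium mean was 14.2% ± 8.34 (SD, n = 2), a difference of -17.8 points, with p = 0.3333 in a two-sided exact permutation test, the lowest that 2 libraries against 2 allow. Within pairs it was -16.8 and -18.9 points. Peaks of a list are not replicates, and the intervals cover counting error only.

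**Figure D2:**
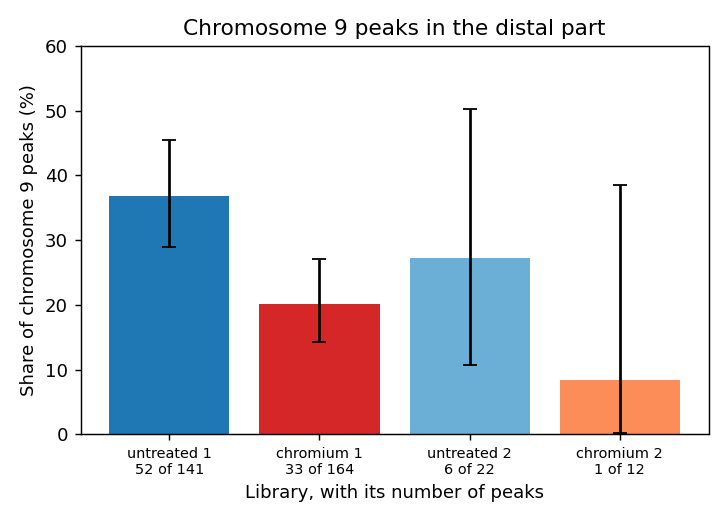
Share of each library's chromosome 9 peaks that lie beyond 40 Mb, with exact 95% intervals of the count. Both chromium bars (20.1% and 8.33%) are below both untreated bars (36.9% and 27.3%), and the interval of chromium 2 is wide because it rests on 12 peaks.

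On chromosome 12 the peaks gathered at the far end. Beyond 110 Mb lay 38 of 110 peaks, 3.79 per Mb, against 0.655 per Mb before it. The immunoglobulin heavy chain locus, from 113256204 to 116009954, held 25 of them (22.7% of the chromosome's peaks, exact 95% interval 15.3 to 31.7). In lymphocytes this locus is known for many CTCF sites among its variable segments. Untreated 1 held 10 of the locus peaks and untreated 2 held 4, while chromium 1 held 11. Chromium 2, with a single peak on all of chromosome 12, held 0. The highest-ranked peak of the locus, at 115192289 to 115192552 in chromium 1, had a score of 10.7 and exceeded or tied 99.0% of its list. Of the 25 peaks of the locus, 0 overlapped a peak of another list. On all of chromosome 12 only 4 of 110 peaks (3.64%) did, so the 0 says little about the locus.

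Recurrence was lower on chromosomes 9 and 12 than elsewhere in all 4 libraries. A peak counts as recurrent when it overlaps a peak of another list by at least 1 bp. In untreated 1 the recurrent share was 2.70% (5 of 185, exact 95% interval 0.883 to 6.19) against 10.8% on the other chromosomes. For chromium 1 it was 1.82% (4 of 220, 0.498 to 4.59) against 7.98%, and for untreated 2 it was 3.23% (1 of 31, 0.0816 to 16.7) against 13.2%. Chromium 2 had 0 of 13 (exact 95% interval 0 to 24.7), against 5.19%. The intervals of both number 2 lists include the share elsewhere. The mean difference was -7.34 points ± 2.11 (SD, n = 4 libraries), negative in 4 of 4, with p = 0.125 in a two-sided exact sign-flip permutation test, the smallest p it can give. An overlap counts in each list that takes part, so the 4 differences are not independent. With the window of chromosome 9 at 3.0 to 3.1 Mb kept, the mean share was 9.72% against 9.28%, a difference of 0.440 points in the other direction (exact p = 0.875), so the result holds for these chromosomes without that window.

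As merged sites the comparison was 5 of 444 (1.13%, exact 95% interval 0.367 to 2.61) against 1412 of 30829 (4.58%, 4.35 to 4.82) elsewhere. Over all chromosomes 4.53% of sites were in 2 or more lists, and 9.42% of peaks overlapped another list. Over all chromosomes 242 of 31273 sites were in 3 or 4 lists, and on chromosomes 9 and 12 it was 0 of 444. Such sites are rare everywhere, and this contrast was not tested. Chromosomes 14 and X, the other sparse ones, had 20 recurrent peaks of 343 (5.83%, 3.60 to 8.86), and the mean difference of chromosomes 9 and 12 from them was -5.86 points (sign-flip permutation test, exact p = 0.125). Low density therefore did not always come with the lowest recurrence. Chromosome 9 had the lowest recurrent share of 20 chromosomes, 1.77%, while chromosome 14, with fewer peaks per Mb, had 7.73%. Across the 20 chromosomes Spearman's rho of density and recurrent share was 0.51. These points share the same 4 lists, and the share that can match depends on how many peaks the other lists hold.

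**Figure D3:**
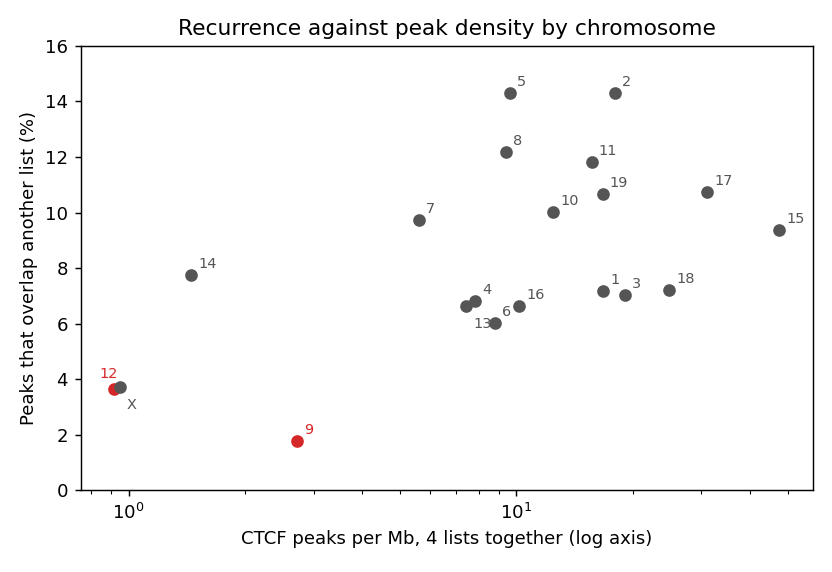
Share of peaks that overlap another list against peaks per Mb (log axis), 1 point per chromosome over the 4 lists, with chromosomes 9 and 12 in red. Chromosome 9 is lowest at 1.77%, chromosome 12 is at 3.64%, and chromosome 14 is at 7.73% with a lower density than chromosome 9.

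Set against how much of the chromosomes the other lists cover, recurrence on chromosomes 9 and 12 was above that of the other chromosomes in 3 libraries and below it in chromium 2. On chromosomes 9 and 12 the peaks of the other 3 lists covered 0.0254% of bases for untreated 1 and 0.0400% for untreated 2, and 0.0220% for chromium 1 and 0.0417% for chromium 2. The recurrent share divided by that covered share was 107 and 80.6 for the untreated lists, and 82.7 and 0 for the chromium lists. On the other chromosomes the covered share was between 0.182% and 0.306%, and the ratios were 50.3 and 46.5, and 43.8 and 16.9. Chromosomes 14 and X had ratios of 321 and 370 for the untreated lists and 215 and 533 for the chromium lists, above those of chromosomes 9 and 12 in all 4 libraries. The ratios on chromosomes 9 and 12 rest on 5 sites and were not tested. Most peaks of these chromosomes had no near partner, and the median gap to the closest peak of another list was 120 kb. Only 6 further pairs of peaks from different lists lay within 1 kb of each other without overlap. The highest-scored of these pairs was at Eif3g, where the chromium 2 peak (20899633 to 20899841, percentile 84.9) began 883 bases past the untreated 2 peak.

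The score percentile of a peak is the share of peaks in its list with a score no higher. On chromosome 9 the site at 30480496 to 30480829 lay between genes, 13521 bp beyond Snx19, which encodes a sorting nexin. It had a score of 7.04 (percentile 92.2) in untreated 1 and 10.01 (98.9) in chromium 1. Snx19 also had a separate peak at its start in chromium 1, at 30426800 to 30427040 (percentile 92.5). The site at 31082259 to 31082637 lay between Zbtb44 and St14, the gene of the membrane protease matriptase, at 6563 and 6142 bp from them, and overlapped the lncRNA gene Gm17508. Its percentile was 92.2 in untreated 1 and 56.0 in chromium 1, and an untreated 2 peak inside St14 lay 20.957 kb away.

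The third site on chromosome 9, at 111289873 to 111290184, lay 10935 bp beyond Epm2aip1, which encodes a partner of the glycogen phosphatase laforin, and 21255 bp before Trank1. It had a percentile of 87.3 in untreated 1 and 70.1 in chromium 1. On chromosome 12 the site at 78918331 to 78918665 lay 11326 bp from Plek2, a pleckstrin homologue, and overlapped the lncRNA gene Gm46359. It was the only recurrent site found in lists of different number, with a percentile of 80.1 in untreated 1 and 88.0 in untreated 2. The closest chromium 1 peak was 483 kb away, so the Plek2 site was called in both untreated lists and in neither chromium list. Over all chromosomes 46.0% of the 428 sites in both untreated lists had that pattern. It was the only site of these chromosomes in both untreated lists, and 0 sites were in both chromium lists. Over all chromosomes 428 of 31273 sites were in both untreated lists and only 41 in both chromium lists. At such shares a count of 0 among 444 sites says little.

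Thus 4 of the 5 sites joined untreated 1 and chromium 1, the longest lists, which share an input. This pair also prevailed over all chromosomes, where 1013 of the 1417 sites in 2 or more lists joined it, 774 of them in no other list. The peaks of the 4 sites were 2.16% of the untreated 1 list and 1.82% of the chromium 1 list on the 2 chromosomes, against 8.77% and 6.93% elsewhere. The untreated lists shared 1 peak, 0.541% of untreated 1 and 3.23% of untreated 2, against 3.72% and 9.61% elsewhere. With matches counted only between lists of different input, the Plek2 site alone remained, and the mean difference in recurrent share was -4.91 points (exact p = 0.125).

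Recurrent peaks had a higher median score than single-list peaks in each of the 3 libraries that held any. Their median percentile was 92.2 in untreated 1 against 55.9 for the others, 84.5 against 54.9 in chromium 1 and 88.0 against 65.3 in untreated 2. These medians rest on 5, 4 and 1 recurrent peaks. The peaks are partners at the same 5 sites, so the differences of the 3 libraries are not independent. The mean difference was 29.6 points ± 6.79 (SD, n = 3 libraries), positive in 3 of 3 (two-sided exact sign-flip permutation test, p = 0.25, the minimum for 3 libraries). High score was not sufficient for recurrence. In untreated 1 the highest scores, 10.9, went to a peak 50402 bp from Ryk (chromosome 9, 102784346 to 102784690) and another 27023 bp from Lrrc74a (chromosome 12, 86795909 to 86796187), which were in no other list. Scores were heavily tied. The shortest width, 209 bp, was that of 45.9% of the peaks of untreated 1 and 45.2% of untreated 2, against 35.2% and 32.1% elsewhere. Chromium 1 and chromium 2 had 49.5% and 76.9% such peaks, against 38.1% and 46.0%.

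Compared with the other chromosomes, the median percentile was equal in untreated 1 (55.9) and in chromium 1 (54.9). It was 65.3 against 49.9 in untreated 2 and 63.2 against 50.1 in chromium 2. The mean difference was 7.12 points (two-sided exact sign-flip permutation test, p = 0.5, n = 4). With differences of 0 in untreated 1 and chromium 1, no lower p was possible, so the test cannot decide the question. The mean difference was -0.76 points among peaks at or above the median score of their list (exact p = 1).

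**Figure D4:**
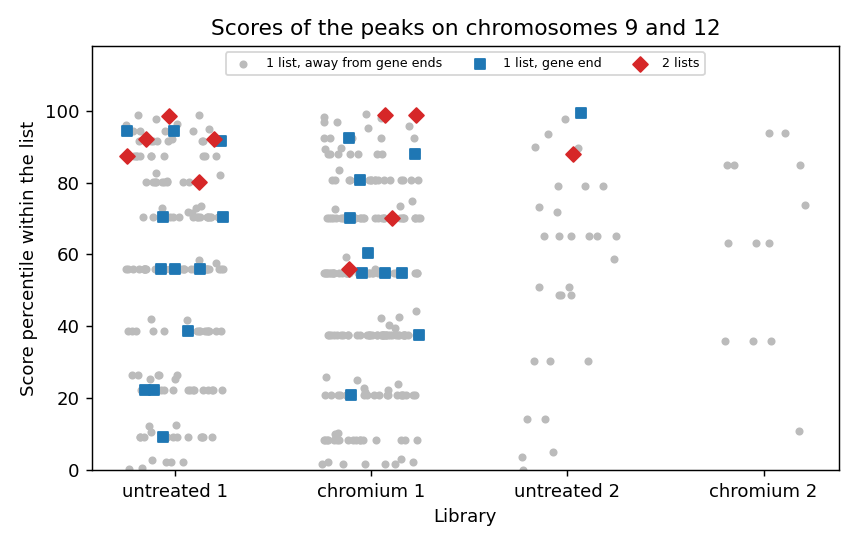
Score percentile within the list of each of the 449 peaks, by library, with peaks found in 2 lists as red diamonds and single-list peaks at gene ends as blue squares (sideways spread is random). The red diamonds lie between 56.0 and 98.9, the blue squares between 9.20 and 99.2, and horizontal bands are tied scores.

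Gene ends held 23 of the 449 peaks, 5.12% (exact 95% interval 3.27 to 7.59), against 6.53% of all peaks. The share was 6.49% in untreated 1 (12 of 185) against 7.38% elsewhere, and 4.55% in chromium 1 (10 of 220) against 5.99%. In untreated 2 it was 3.23% (1 of 31) against 7.21%, and in chromium 2 it was 0 of 13 (exact 95% interval 0 to 24.7) against 4.34%. The difference was negative in 4 of 4 libraries, with a mean of -2.67 points ± 1.75 (SD, n = 4; two-sided exact sign-flip permutation test, p = 0.125, the minimum for 4 libraries). The mean difference was -0.449 points with gene ends counted within 2.5 kb (exact p = 1), -0.891 points within 500 bp (exact p = 0.375) and -0.343 points against chromosomes 14 and X alone (exact p = 0.875). Within 1 kb of a start of transcription lay 19 of the 449 peaks, a mean difference from the other chromosomes of -0.962 points (exact p = 0.375), positive in untreated 1 and negative in the other 3 libraries.

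The gene-end share followed gene content more than peak density. Across 20 chromosomes, Spearman's rho was 0.14 with peaks per Mb and 0.78 with protein-coding genes per Mb, over points that share the 4 lists. On chromosome 9, 3.49% of bases lay within 1 kb of a gene end and 19 of 339 peaks did, a ratio of 1.605 between the shares. Chromosome 12 had 2.08% of bases and 3.64% of peaks, a ratio of 1.75. Of the other chromosomes apart from Y, only chromosome 15 had a lower ratio, 1.502, and the highest was 3.27 on chromosome 8. Chromosomes 9 and 12 thus stayed near the low end when the bases near gene ends were taken into account. A further 193 peaks (43.0%) were inside genes away from their ends and 233 (51.9%) lay between genes.

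**Figure D5:**
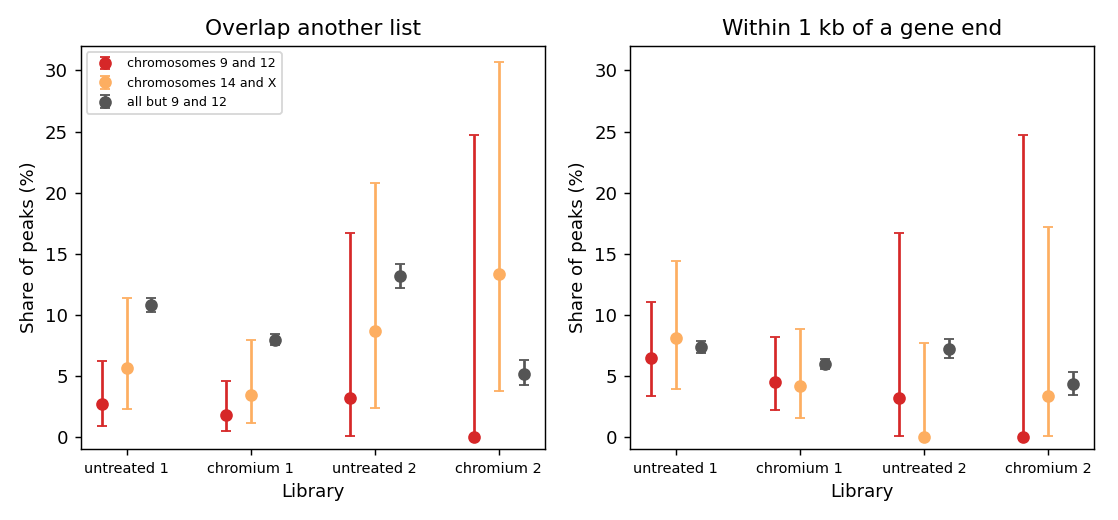
Share of peaks that overlap another list (left) and that lie within 1 kb of a gene end (right), by library, for chromosomes 9 and 12, chromosomes 14 and X, and all chromosomes but 9 and 12, with exact 95% intervals. The red points lie below the grey points in every library in both panels. In the right panel the interval of every red point includes the grey point.

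Elsewhere, gene-end peaks recurred more often than others, 552 of 2131 (25.9%) against 8.37%. On chromosomes 9 and 12 the count was 0 of 23, which allows up to 13.04%, against 10 of 426 (2.35%). The gene-end share of recurrent peaks was 0 in the 3 libraries that had any, and that of single-list peaks there averaged 4.88%, a difference of -4.88 points ± 1.68 (SD, n = 3; two-sided sign-flip permutation, exact p = 0.25, its minimum). With 5, 4 and 1 recurrent peaks in these libraries, a count of 0 says little.

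The gene-end peaks lay at 26 of 1880 protein-coding genes of chromosomes 9 and 12 (1.38%), against 9.23% of genes elsewhere and 8.56% of all genes. A peak at the same gene in 2 or more lists was found for 0 of the 26, whereas 384 of 1847 genes with a peak elsewhere had this. Because the chromosomes were chosen for few peaks, the low share of genes with a peak describes that choice and is not a finding. With fewer peaks, a gene is also less likely to have them in 2 or more lists. Neither contrast was tested. The peak of highest rank was that of Eif3g, a subunit of translation initiation factor eIF3, in untreated 2 (20898533 to 20898749, score 9.06, percentile 99.2, midpoint 51 bp from the start). In untreated 1, Cul5, a cullin scaffold of ubiquitin ligases, had a peak 85 bp from its start (53667476 to 53667708, percentile 94.2). At the same percentile, a peak between Apoa5 and Zpr1 (46272790 to 46273009) lay 165 bp from the start of Zpr1, which encodes a zinc finger protein, and 978 bp past the end of Apoa5, an apolipoprotein that governs plasma triglyceride. A peak of untreated 1 (108566942 to 108567215, percentile 91.5) lay inside Ndufaf3, a complex I assembly factor, with its midpoint 358 bp from the start of that gene and 406 bp from the lower-coordinate end of Dalrd3. Chromium 1 had peaks at the start of Snx19, given above, and at the lower-coordinate end of Rad54l2, a helicase gene (106687300 to 106687550, percentile 87.9).

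Lower-ranked gene-end peaks included 3 at promoters searched for the motif. Uqcrc1, a core subunit of respiratory complex III, had an untreated 1 peak 78 bp from its start at a low rank (percentile 22.4). A single untreated 1 peak on chromosome 12 (78861873 to 78862081, percentile 70.3) overlapped the adjoining ends of the diverging genes Atp6v1d, a subunit of the vacuolar proton pump, and Eif2s1, the alpha subunit of initiation factor eIF2, with its midpoint inside Atp6v1d. Cbl, a ubiquitin ligase of receptor signalling, had an untreated 1 peak across its upper-coordinate end (percentile 55.9). The Dhx30 peak, at 110100964 to 110101231 in untreated 1 (percentile 38.7), was under an alternative start of this RNA helicase gene and not within 1 kb of an annotated end.

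Genes listed for the treatment and the tissue had peaks at about the share of all genes on the 2 chromosomes. Of 79 listed genes there, 1, Apoa5, had a gene-end peak (1.27%), against 1.38% of all 1880 protein-coding genes. A peak midpoint lay inside 6 of the 79 (7.59%), against 147 of the 1880 (7.82%). In the AHR and xenobiotic list 0 of 8 genes had either, and Cyp1a1, the classical target of the aryl hydrocarbon receptor, lay 59.0 kb from its closest peak, in chromium 1. Of the 17 hepatocyte and lipoprotein genes, Apoa5 had the end peak above. In the CTCF, cohesin and architectural list of 6 genes, 0 had an end peak. Smarca4, the BRG1 remodeller ATPase, had a peak inside it in untreated 1 and in chromium 1, and Stag1, a cohesin subunit, in chromium 1. The zinc finger factor Yy1 lay 16.026 kb from a chromium 1 peak. Of 9 p53 and DNA damage genes, Usp28 had a peak inside in untreated 2 and Rad51b in chromium 1. The lists for imprinted and boundary loci (5 genes, with Dlk1 and Dio3), NRF2 and redox (5), cell cycle (5), metal and anion transport (3) and stress and immediate early genes (14, with Fos and Hif1a) had 0 genes with a peak at an end or inside. Of 7 genes for other cell types, Ncam1 had a peak inside in untreated 1.

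No difference between the treatment arms in their use of these chromosomes could be shown with 2 libraries each. The 2 chromosomes held 1.58% and 1.48% of the number 1 lists (untreated, then chromium) and 0.691% and 0.683% of the number 2 lists, so the values grouped by library number. Chromium averaged 1.08% ± 0.563 (SD, n = 2) and untreated 1.14% ± 0.629 (SD, n = 2), with -0.0550 points between them (two-sided exact permutation test, p = 0.667). The gene-end share was 4.86% ± 2.31 (SD, n = 2) untreated and 2.27% ± 3.21 (SD, n = 2) after chromium, a difference of -2.58 points (exact permutation p = 0.667). It was -0.311 points without chromium 2, -0.953 without untreated 1, -4.21 without untreated 2 and -4.86 without chromium 1. The recurrent share was 2.96% ± 0.370 untreated and 0.909% ± 1.29 after chromium, -2.06 points apart (exact permutation p = 0.3333, n = 2 each, the minimum), and the chromium values were the lower ones. Without untreated 1 the recurrent share was 0 in each remaining library, so this difference rests on that list.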

How the data were processed

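CTCF occupancy was measured by chromatin immunoprecipitation and sequencing in 4 libraries, with 2 input samples that have no values here. Bowtie, MACS2 and the mm10 build are named in the submitters' processing notes. Names of the deposited peaks record that each library was called alone against the input of its number. The sources used here give no versions, thresholds or read totals, so depth is unknown. The deposited score per peak is the authors' value, of unstated scale, and was used to describe and rank peaks within a list. It was turned into a percentile of the list without the window at 3.0 to 3.1 Mb of chromosome 9.

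Positions were read as 1-based mm10 coordinates, and 14 peaks off chromosomes 1 to 19, X and Y were left out. Overlapping peaks of different lists (at least 1 bp) were merged into sites. Gene ends came from 21887 protein-coding RefSeq genes of GRCm38.p6, which shares mm10 coordinates, and starts of transcription from RefSeq promoter entries, not used on chromosome 18. Shares have exact Clopper-Pearson intervals. Per-library differences were tested by sign-flip permutation and treatment by permutation over libraries, both exact. The members and gene lists were chosen with earlier results of these data known. Named were the recurrent sites, the 6 gene-end peaks of highest percentile and listed genes with an end peak, and other genes after their values were seen. Of 254 listed genes, 245 matched a protein-coding gene. The merging was tested on simulated data. Python 3.11.15, numpy 2.4.6, pandas 2.3.3, scipy 1.17.1 and matplotlib 3.10.9 were used. A few results on single genes are not reported here.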

Additional observations from a re-analysis of the deposited data

How the results depend on the processing

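Of 109 values recomputed under alternative settings, 95 kept their direction or stayed within 1.5 times the count, 5 changed sign and 9 moved. With the chromosome 9 window kept, the difference in recurrent share was 0.44 points. When only the upper part of each list by score, from its median up, was kept, the difference in score percentile was -0.76 points. The difference in list share by treatment was 0.0189 points on chromosome 9 alone, and ran from -0.500 to 0.390 points with a library left out. The count of sites in 2 or more lists was 3 with scores of 5 or more, 9 with midpoints within 1 kb, 1 with matches between different inputs only, 13 with the window kept, 3 on chromosome 9 alone and 2 on chromosome 12 alone. It ran from 0 (without untreated 1) to 5 with a library left out, and was 1 without chromium 1. The difference in gene-end share by treatment ran from -4.86 to -0.311 points with a library left out. The difference in recurrent share by treatment ran from -1.88 to 0 points with a library left out. In the pairing by replicate number (replicate block), the mean differences, chromium minus untreated, were -2.58 points for the gene-end share, -0.0550 points for the list share and -2.06 points for the recurrent share, each with p = 0.5 in an exact sign-flip permutation test, the smallest 2 pairs can give. The labels do not say that a number marks a shared culture, and the block changed no direction. The comparisons with starts of transcription and with chromosomes 14 and X were added after the data were seen. The depth is unknown, and the number 2 lists hold only 31 and 13 of these peaks.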

Other observations

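Some genes held peaks of different lists that did not overlap, for which a gene offers far more room than a peak. On chromosomes 9 and 12, 147 protein-coding genes contained a peak midpoint and 23 contained midpoints from 2 or more lists, of which 1 held an overlapping pair. Of the 23 genes, 19 lay below 40 Mb on chromosome 9, the part that holds 247 of the 449 peaks. Aplp2 (chromosome 9, 31149557 to 31211848) had 2 peaks in untreated 1 and 1 in each of the others, the only gene of the 2 chromosomes with peaks from all 4. Cntn5, over 1271 kb of gene, had 2 and 0 peaks in the untreated lists 1 and 2, and 5 and 2 in the chromium lists. Amotl1, an angiomotin family member of the Hippo pathway, had 1 peak in each untreated list and 3 in chromium 1 over 121 kb, and Kirrel3, a neuronal adhesion molecule, had 1 in each list but chromium 2 over 555 kb. Yap1, the transcriptional coactivator of the same pathway, had 4 peaks in chromium 1 and 0 in the other lists. Ntm had the same counts, and Arhgap42 had 3 peaks in untreated 1 and 2 in chromium 1. These genes were chosen after their counts were seen, longer genes have more room for peaks, and the counts were not tested.

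The pairs that missed an overlap by the least lay inside Nova1, where a chromium 1 peak and an untreated 1 peak were separated by 9 bases (chromosome 12, 46707719 to 46707955 and 46707965 to 46708195), and near Piwil4, where an untreated 2 peak and a chromium 1 peak were 64 bases apart. The other pairs within 1 kb were inside Dock6 (157 bases), near Tgfbr2 (660), near Adam6a in the heavy chain locus (806) and at Eif3g (883).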
